A study of Mus musculus with 6 samples.

Results

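The imprinted growth genes H19, Igf2, Igf2r, Meg3, Dlk1, Cdkn1c, Mest, Peg3, Plagl1 and Grb10 were followed in mouse ADSCs carrying a scrambled hairpin or a hairpin against Ifit1. They are 10 of the 19877 genes in the deposited table. They were chosen on measured values: the low level of H19 in the knockdown libraries of this same comparison put the group forward, and the other 9 were added as known imprinted growth genes with earlier results of these data in view. Their values and fold changes are therefore given as a description, with no p-value and no test of the group.

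The labels call the cells ADSCs, which usually stands for adipose-derived stem cells, stromal precursors grown from fat. The genotype was WT in both groups, and the treatment was Scrambled in 3 libraries and IFIT1 knockdown in the other 3, 1 library of each group in each of 3 batches. The hairpin was expressed in WT cells, and no drug, dose or time is given for either group. Separate cultures or animals are not named in the labels, so every p-value here measures the spread between these 6 samples alone, which may be technical.

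Imprinted genes carry marks laid down in the germ line, and by textbook knowledge they are transcribed mainly from the copy of 1 parent. Many genes expressed from the paternal copy promote growth of the embryo and its stem cells, and many expressed from the maternal copy restrain it. At the H19 and Igf2 locus both genes use the same enhancers, and the factor CTCF bound on the unmethylated maternal copy steers them to H19. H19, Igf2, Meg3 and Dlk1 are abundant in fetal tissue, and most are shut down after birth except in stem and precursor cells. The table gives 1 value per gene and library and does not separate the parental copies, so the expressed parent is background here and was not measured.

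Library totals ran from 32.2 to 40.6 M recovered fragments. Ifit1, the targeted gene, stood at 4.90, 3.75 and 4.97 FPKM (fragments per kilobase per M fragments) in scrambled libraries 1, 2 and 3, and knockdown libraries 1, 2 and 3 held 1.76, 1.48 and 1.51 FPKM. It was lower in each knockdown library (limma log2 fold change -1.27 ± 0.11, SE, adjusted p = 5.71e-05). Of 10311 genes tested, 5255 (51.0%) passed an adjusted p of 0.05, 3209 (31.1%) lower and 2046 (19.8%) higher in knockdown, and the split was 4035 to 1540 after rescaling to TPM, 2293 to 3001 under median centring and 2256 to 2486 under quantile normalization. More genes were undetected in knockdown: 3476 to 3868 had a value of 0 per knockdown library, against 3013 to 3188 per scrambled library. Of 11 stromal markers, 10 reached 1 FPKM in at least 3 libraries, and their summed level, mostly Col1a1 and Col1a2, ran from 2691 to 3027 FPKM in scrambled libraries and from 1696 to 1985 FPKM in knockdown libraries. The stromal markers did not all move the same way: 7 of those 10 were lower in every knockdown library, Cd44 (82.6 and 117 FPKM on average in scrambled and knockdown libraries) and Itgb1 (296 and 316 FPKM) were higher in every one, and Vcam1 (41.3 and 38.3 FPKM) overlapped. Nt5e, which codes for CD73, was the stromal marker below it (0.234 FPKM in scrambled and 0.206 FPKM in knockdown libraries). Adipocyte markers summed to between 10.04 and 11.2 FPKM in scrambled and between 7.47 and 8.79 FPKM in knockdown libraries, and Adipoq, the marker of mature adipocytes, was at 0 in 5 of the 6. Macrophage markers summed to between 4.53 and 5.56 and between 5.85 and 5.92 FPKM, where Cd14 was higher in every knockdown library (2.96 and 3.90 FPKM on average), Cd68 overlapped (1.92 and 1.87 FPKM) and Csf1r was lower in every one (0.177 and 0.0960 FPKM). In the same order of groups, epithelial or mesothelial markers ran from 19.4 to 27.5 and from 13.7 to 18.9 FPKM (mostly Msln), and Schwann or neural markers from 26.5 to 27.7 and from 18.2 to 21.3 FPKM (mostly Tubb3). Endothelial markers reached at most 0.103 FPKM in any library and lymphocyte or mast cell markers at most 0.165 FPKM. The part of other cells in the values below was not tested. Since these are bulk samples, fewer cells that express a gene and less RNA per cell cannot be told apart in any value below.

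In 8 of the 10 genes the groups did not overlap. H19, Igf2, Igf2r, Meg3, Cdkn1c, Peg3 and Grb10 were lower in every knockdown library than in any scrambled library, and Mest was higher. In Dlk1 and Plagl1 the groups overlapped. Over all 19877 genes, 26.1% were lower and 13.9% were higher with no overlap. All 5 genes expressed from the maternal copy were among the 7 that were lower, and of the 5 expressed from the paternal copy 2 were lower, 1 was higher and 2 overlapped. Nothing is read from these counts, since the comparison that gives them also put the group forward.

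**Figure D1:**
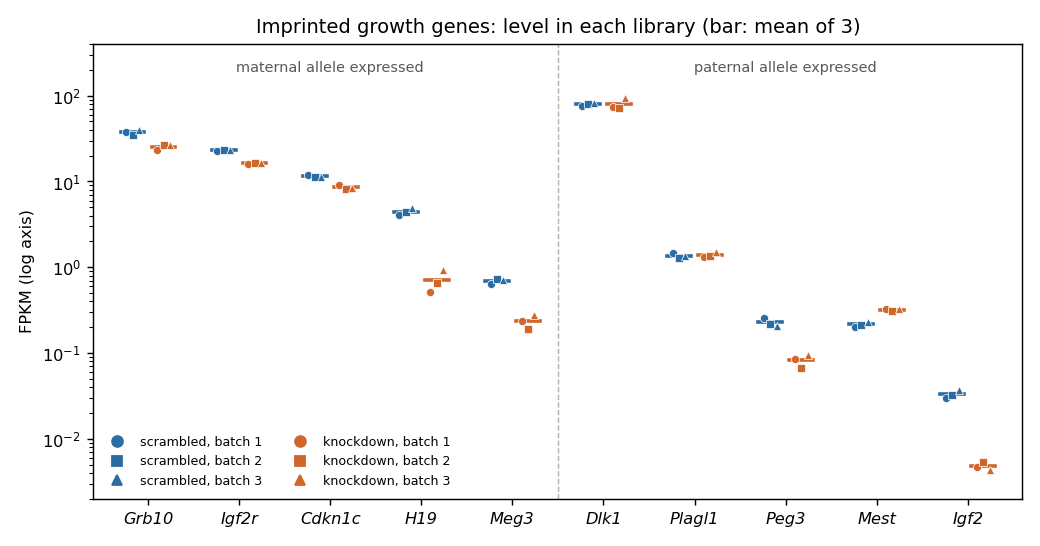
FPKM on a log axis for each of the 10 genes in the 3 scrambled libraries (blue) and the 3 knockdown libraries (orange), with the batch as the marker shape and a bar at each mean; genes are split by the parental copy that textbooks give as expressed. The colours do not overlap for 8 genes, and they overlap for Dlk1 near 80.1 FPKM and for Plagl1 near 1.38 FPKM.

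With 1 FPKM in at least 3 libraries, 6 genes entered the fit, and Igf2, Meg3, Mest and Peg3 did not. H19 entered only through its scrambled libraries (3 of 3 at 1 FPKM or more, against 0 of 3 knockdown libraries). A gene at its knockdown level therefore had to be higher in scrambled libraries to be tested at all. Nothing is read from threshold calls of the 10 genes, since the comparison chose them.

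H19 is a long non-coding RNA gene at chr7:142575530-142578146 (GRCm38, minus strand), and its transcript is spliced, is polyadenylated and carries a microRNA precursor. H19 measured 4.07, 4.37 and 4.96 FPKM in scrambled and 0.521, 0.659 and 0.927 FPKM in knockdown libraries 1, 2 and 3, respectively. The lowest scrambled library stood above the highest knockdown library by several times the spread in either group. The mean was 4.47 ± 0.452 FPKM (SD, n = 3) in scrambled and 0.702 ± 0.206 FPKM (SD, n = 3) in knockdown libraries, 6.36 times higher in scrambled. Behind these stood 381, 374 and 431 fragments in scrambled and 44, 49 and 86 fragments in knockdown libraries. Within batches 1, 2 and 3 the knockdown level was 0.128, 0.151 and 0.187 of the scrambled level. The log2 fold change was -2.06 ± 0.13 (SE) on the log2(FPKM + 0.5) scale, which understates the change of a gene this low, and it ran from -1.69 to -2.67 over the alternatives. The 2648 genes within a factor of 2 of its mean level had a median ratio of 0.887.

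H19 hosts the precursor of miR-675, whose mature arms lie inside the H19 transcript and are released from it. They are shown because they lie in the gene with the lowest ratio of the tested 6. Small RNAs were not measured here. RefSeq (GRCm38.p6) places the 5p arm at chr7:142577112-142577133 and the 3p arm at chr7:142577078-142577099, both on the minus strand, and capitals mark the seed, bases 2 to 8. The seeds of the arms differ.
miR-675-5p: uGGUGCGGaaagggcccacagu
miR-675-3p: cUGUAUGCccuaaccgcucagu

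Igf2, the growth factor gene on the paternal copy of the same locus (chr7:142650768-142666816, minus strand), was close to absent. Igf2 measured 0.0300, 0.0328 and 0.0369 FPKM in scrambled and 0.00476, 0.00540 and 0.00432 FPKM in knockdown libraries 1, 2 and 3, respectively. The groups did not overlap, but the values rest on 7, 7 and 8 fragments in scrambled and 1 fragment in each knockdown library. The knockdown share of fragments, corrected for library totals, was 0.144 of the scrambled one, with an exact 95% interval of 0.0277 to 0.480 that covers counting error only. H19 was 136, 133 and 134 times the Igf2 level in scrambled libraries and 110, 122 and 214 times in knockdown libraries 1, 2 and 3, where a single Igf2 fragment stands behind each ratio.

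The neighbours of H19 differed in their values. Mrpl23, a mitochondrial ribosomal protein gene 43.1 kb away, stood at 19.3 ± 0.664 FPKM in scrambled and 18.9 ± 1.36 FPKM in knockdown libraries (SD, n = 3), a log2 difference of -0.04 ± 0.05 (limma adjusted p = 0.606). Lsp1, an actin-binding protein gene 117 kb away, fell from 8.69 ± 0.699 to 5.38 ± 0.643 FPKM (-0.65 ± 0.08, limma adjusted p = 0.000397). Tnnt3, Tnni2, Syt8, Igf2os, Ascl2, Tspan32 and R74862, the other named neighbours, were too low to test, the highest being R74862 at 0.507 ± 0.0399 FPKM in scrambled and 0.366 ± 0.0934 FPKM in knockdown libraries. Tnnt3 and Tnni2 code for fast skeletal troponins and also stand in the list of muscle precursor markers. The 3 genes of that list with a value (Des, Tnnt3 and Tnni2) summed to between 0.335 and 0.415 FPKM in scrambled libraries and between 0.00804 and 0.149 FPKM in knockdown libraries. None of these libraries reached 1 FPKM over that list, and its part in the H19 and Igf2 values was not tested.

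Igf2r codes for the receptor that takes IGF2 to the lysosome for breakdown, and it is read from the maternal copy (chr17:12682406-12769706, minus strand). Igf2r measured 22.5, 23.3 and 23.3 FPKM in scrambled and 16.0, 16.4 and 16.6 FPKM in knockdown libraries 1, 2 and 3, respectively. The spread within each group was small beside the gap between them. The mean went from 23.1 ± 0.445 to 16.3 ± 0.275 FPKM (SD, n = 3), a log2 fold change of -0.48 ± 0.03 (SE), and the ratio was 0.711, 0.705 and 0.710 in batches 1, 2 and 3. The 3585 genes of like level had a median ratio of 0.987. Airn, the antisense RNA that silences the paternal Igf2r copy, starts inside Igf2r and stood at 1.35 ± 0.318 FPKM in scrambled and 0.819 ± 0.198 FPKM in knockdown libraries. Its call (log2 fold change -0.48 ± 0.15, limma adjusted p = 0.0284) was lost with the replicate block (adjusted p = 0.0523) and in 6 other alternatives, and its adjusted p ran from 0.0172 to 0.406 over all of them. Like H19, Airn entered the fit only through its scrambled libraries, with every knockdown library below 1 FPKM, so its call carries that limit too. It was named for its place and outside the rule for named genes. The strand setting of the counting is not given, so reads of Igf2r and Airn in the shared stretch cannot be told apart, and Airn was between 3.60% and 7.19% of Igf2r in every library.

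The promoter of Igf2r had the most CpG dinucleotides of those printed here, 34 in 300 bases, where the median of 32851 RefSeq promoters was 7. A Grb10 promoter that is not printed had more, 45. RefSeq places the Igf2r promoter at chr17:12769657-12769956 (GRCm38.p6, minus strand), from 250 bases before to 50 after the start. Capitals mark CpG, the dinucleotide that imprinting marks by methylation. The E-box CACGTG, which reads the same on both strands, occurred in it 48 and 7 bases before the start and occurs in 7.15% of all promoters of this length.
Igf2r promoter: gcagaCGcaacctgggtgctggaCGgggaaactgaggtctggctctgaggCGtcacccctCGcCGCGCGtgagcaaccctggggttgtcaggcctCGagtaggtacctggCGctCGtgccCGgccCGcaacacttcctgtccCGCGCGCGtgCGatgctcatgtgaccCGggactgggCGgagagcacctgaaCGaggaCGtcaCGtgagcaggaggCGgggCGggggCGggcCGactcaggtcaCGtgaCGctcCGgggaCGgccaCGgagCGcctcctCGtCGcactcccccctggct

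Cdkn1c and Grb10, growth brakes read mainly from the maternal copy, were lower by amounts near that of Igf2r. Cdkn1c, which codes for the CDK inhibitor p57 (chr7:143458339-143461059, minus strand), stood at 11.8, 11.2 and 11.3 FPKM in scrambled and 9.04, 8.15 and 8.40 FPKM in knockdown libraries 1, 2 and 3. Every knockdown library was below every scrambled one. The mean went from 11.4 ± 0.325 to 8.53 ± 0.460 FPKM (SD, n = 3), a log2 fold change of -0.40 ± 0.05 (SE), with ratios of 0.765, 0.725 and 0.745 in batches 1, 2 and 3. H19, on the same chromosome, was 34.4%, 38.9% and 44.0% of the Cdkn1c FPKM in scrambled libraries and 5.77%, 8.09% and 11.0% in knockdown libraries 1, 2 and 3.

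Grb10 codes for an adaptor that binds and dampens the insulin and IGF1 receptors (chr11:11930499-12037428, minus strand). Grb10 measured 37.3, 34.8 and 40.2 FPKM in scrambled and 23.0, 26.9 and 26.3 FPKM in knockdown libraries 1, 2 and 3, respectively. The groups did not overlap, and scrambled library 3 was the highest and knockdown library 1 the lowest. The mean went from 37.4 ± 2.67 to 25.4 ± 2.08 FPKM (SD, n = 3), a log2 fold change of -0.55 ± 0.07 (SE), and batches 1, 2 and 3 gave ratios of 0.617, 0.772 and 0.654. In neurons Grb10 is read from the paternal copy, and the table does not separate its promoters.

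**Figure D2:**
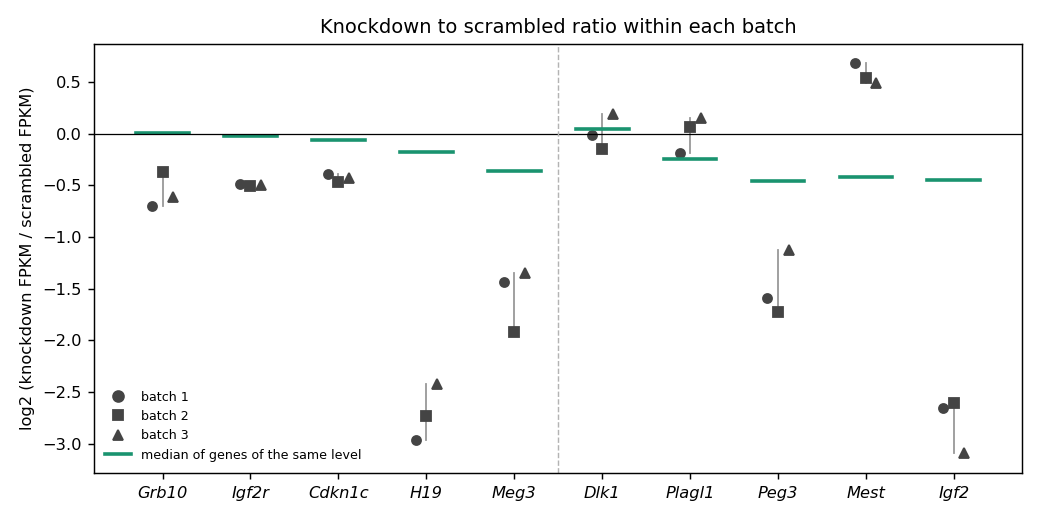
Log2 of the knockdown to scrambled FPKM ratio within each batch (marker shapes) for the 10 genes, with a green bar at the median log2 ratio of genes within a factor of 2 of the same mean level. The 3 batches of Igf2r lie together (0.711, 0.705 and 0.710 as ratios), those of Dlk1 and Plagl1 fall on both sides of 0, and those of Mest lie above 0. The bar of Mest is not read, since its FPKM rests on an uncertain length.

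Meg3 and Dlk1 lie 88.5 kb apart on chromosome 12, are read from opposite parental copies and differed in their values. Meg3 is a maternal long non-coding RNA gene (chr12:109540996-109571729, plus strand). Meg3 measured 0.641, 0.728 and 0.719 FPKM in scrambled and 0.236, 0.192 and 0.282 FPKM in knockdown libraries 1, 2 and 3. Each knockdown library was below the scrambled libraries, with 340, 353 and 354 fragments in scrambled and 113, 81 and 148 fragments in knockdown libraries behind the values. The mean was 2.94 times higher in scrambled (0.696 ± 0.0478 against 0.237 ± 0.0447 FPKM, SD, n = 3), and the fragment ratio of knockdown to scrambled was 0.346, with an exact 95% counting interval of 0.305 to 0.391. The 1536 genes of like level had a median ratio of 0.778.

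Dlk1 is a paternal gene for a membrane protein that keeps preadipocytes from maturing (chr12:109452485-109463336, plus strand), and it had the highest FPKM of the 10 in both groups. Dlk1 measured 75.3, 79.3 and 82.6 FPKM in scrambled and 74.4, 71.6 and 94.1 FPKM in knockdown libraries 1, 2 and 3. Knockdown library 3 was the highest of the 6 and knockdown libraries 1 and 2 the lowest, so the groups overlapped. The mean was 79.1 ± 3.66 FPKM in scrambled and 80.1 ± 12.3 FPKM in knockdown libraries (SD, n = 3), a log2 difference of 0.01 ± 0.09 (SE) whose sign turned with the scaling and with the libraries kept (-0.11 without knockdown library 3). Meg3 was 0.851%, 0.918% and 0.870% of Dlk1 in scrambled libraries and 0.318%, 0.269% and 0.299% in knockdown libraries 1, 2 and 3, so the balance within each library was lower in knockdown in all 3 batches. Rian, the next maternal non-coding RNA gene of the domain, fell from 2.87 ± 0.335 to 1.54 ± 0.331 FPKM (-0.73 ± 0.13, limma adjusted p = 0.00172).

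Promoters of Meg3 and Dlk1 are shown since they serve opposite copies of 1 domain. RefSeq (GRCm38.p6) places them at chr12:109540746-109541045 and chr12:109452573-109452872, both on the plus strand, with 13 and 9 CpG in capitals. A second Meg3 start in the table holds 1 CpG and is not printed. The TATA box core TATAA, searched on both strands, occurred in the printed Meg3 promoter 28 bases before the start on the reverse strand and 25 bases before it on the forward strand, with the matches overlapping. On the forward strand it begins 21 to 35 bases before the start in 3.16% of all promoters. On either strand it lies anywhere in the window in 24.9%, and the Dlk1 window did not hold it. That Dlk1 window lies inside the gene (chr12:109452485-109463336), and the first base of the gene is outside it. Its 9 CpG and its lack of TATAA describe that stretch only.
Meg3 promoter: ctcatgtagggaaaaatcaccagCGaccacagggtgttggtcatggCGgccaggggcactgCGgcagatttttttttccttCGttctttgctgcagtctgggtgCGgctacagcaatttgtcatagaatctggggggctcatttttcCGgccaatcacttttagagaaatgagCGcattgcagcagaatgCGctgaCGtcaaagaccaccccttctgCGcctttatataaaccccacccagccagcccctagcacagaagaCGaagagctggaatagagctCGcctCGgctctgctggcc
Dlk1 promoter: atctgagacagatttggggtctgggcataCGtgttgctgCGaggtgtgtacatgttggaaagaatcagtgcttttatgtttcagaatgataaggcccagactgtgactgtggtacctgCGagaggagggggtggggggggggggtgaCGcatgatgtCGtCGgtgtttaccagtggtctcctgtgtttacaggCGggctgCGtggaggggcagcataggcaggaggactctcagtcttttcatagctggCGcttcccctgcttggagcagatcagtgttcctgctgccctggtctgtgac

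**Figure D3:**
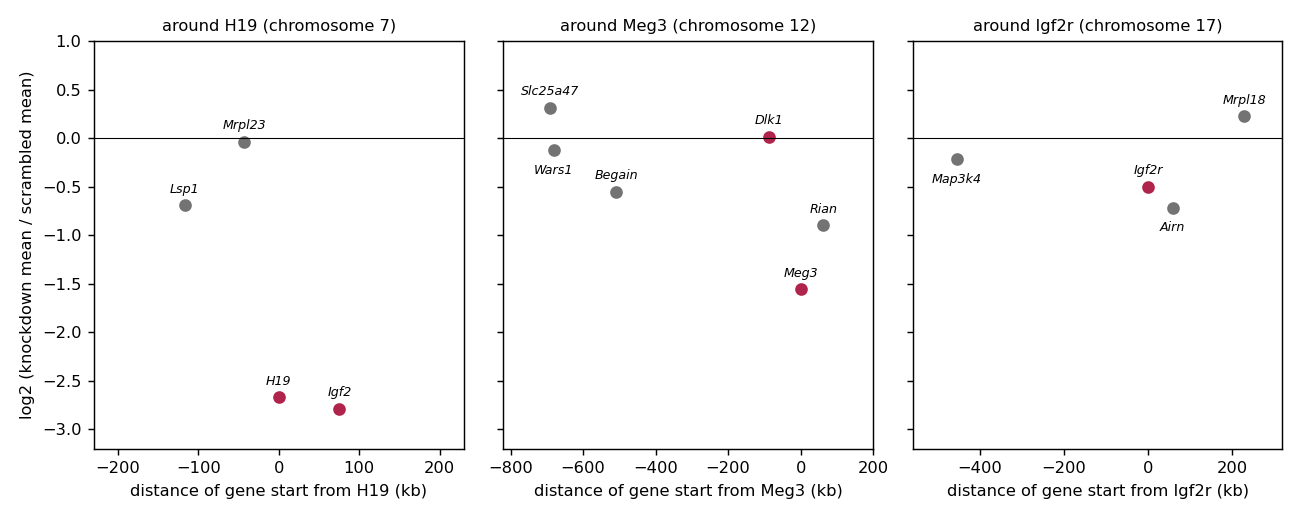
Log2 ratio of the knockdown to the scrambled mean FPKM against the distance of each gene's lowest coordinate from that of H19, Meg3 or Igf2r in kb, for the imprinted growth genes (red) and their tested neighbours (grey). Mrpl23, 43.1 kb from H19, lies near 0 where H19 and Igf2 lie below -2.5 in the plot, and Dlk1 lies near 0 where Meg3 lies at -1.56.

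Peg3, Mest and Plagl1 are paternal genes, and they went 3 ways. Peg3 codes for a zinc finger protein (chr7:6703892-6730462, minus strand), and its level was 0.255, 0.221 and 0.206 FPKM in scrambled and 0.0850, 0.0670 and 0.0945 FPKM in knockdown libraries 1, 2 and 3, respectively. The groups did not overlap, on 120, 95 and 90 fragments in scrambled and 36, 25 and 44 fragments in knockdown libraries. The mean was 2.77 times higher in scrambled, with a fragment ratio of knockdown to scrambled of 0.364 (exact 95% counting interval 0.289 to 0.456), where the 1577 genes of like level had a median ratio of 0.727.

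Plagl1 codes for a zinc finger factor that regulates other imprinted genes (chr10:13090832-13131694, plus strand). Plagl1 measured 1.48, 1.28 and 1.35 FPKM in scrambled and 1.31, 1.34 and 1.496 FPKM in knockdown libraries 1, 2 and 3, respectively. The groups overlapped, and the highest and the lowest values came from knockdown library 3 and scrambled library 2. The mean was 1.37 ± 0.105 and 1.38 ± 0.103 FPKM (SD, n = 3), a log2 difference of 0.01 ± 0.09 (SE). Its value moved to 0.24 under quantile normalization and to 0.22 under cyclic loess. The 2005 genes of like level had a median ratio of 0.844.

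Over the 15 RefSeq promoters found for 8 of the 10 genes, TATAA occurred in 4 and the E-box CACGTG, which reads the same on both strands, in 2. The E-box was in the promoter of Plagl1 and, with 2 matches, in that of Igf2r, and it occurs in 7.15% of all promoters. These matches describe the letters only. H19 and Cdkn1c had no promoter entry.

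Mest, a hydrolase gene of mesodermal tissue (chr6:30733506-30748466, plus strand), was the 1 gene that was higher. Mest measured 0.204, 0.211 and 0.231 FPKM in scrambled and 0.327, 0.308 and 0.324 FPKM in knockdown libraries 1, 2 and 3. Each knockdown library was above the scrambled ones, on 266, 252 and 280 fragments in scrambled and 384, 319 and 419 fragments in knockdown libraries. The mean was 1.48 times the scrambled mean in knockdown (0.216 ± 0.0141 against 0.320 ± 0.0102 FPKM, SD, n = 3), and the fragment ratio was 1.49 with an exact 95% counting interval of 1.36 to 1.63. The 1476 genes of like FPKM had a median ratio of 0.745. The length by which the authors' values divide Mest fragments came out at 32135 bases, 8.15 times the 3945 bases of its merged exons in GENCODE M21 and more than the 14961 bases the gene spans in RefSeq. Of 10439 genes with at least 500 fragments, 11, Mest among them, had a length ratio at least as high, and the median length ratio was 0.869. The FPKM of Mest is therefore not compared with that of other genes. For the same reason nothing is read from the median ratio of genes of like FPKM. The ratio between libraries does not depend on the length, but which sequence was counted as Mest is not known. The length was worked out from the recovered fragments, so the fragment numbers of Mest are uncertain too. If they are too high, the counting interval is too narrow.

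Copg2, whose end overlaps that of Mest on the opposite strand, fell from 5.25 ± 0.0760 to 3.60 ± 0.156 FPKM (SD, n = 3; log2 fold change -0.49 ± 0.05, limma adjusted p = 0.000177). Copg2 codes for a subunit of the coat of Golgi vesicles. Reads in the overlap cannot be told apart without the strand.

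**Figure D4:**
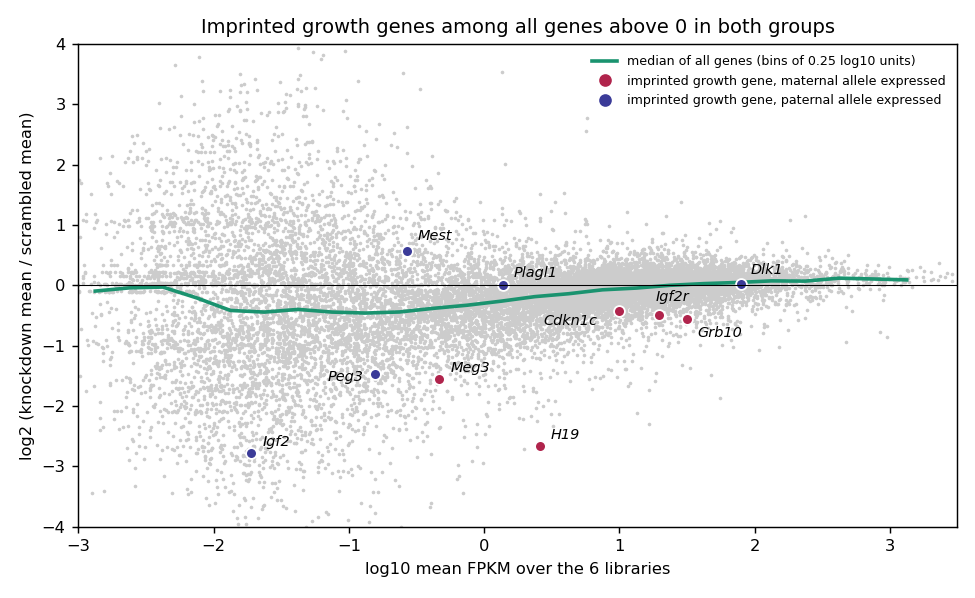
Log2 ratio of the knockdown to the scrambled mean FPKM against log10 of the mean FPKM for all genes above 0 in both groups (grey), with the median of all genes in bins of level (green) and the 10 imprinted growth genes in red (maternal copy expressed) and blue (paternal). Points beyond 4 on the vertical axis are not drawn. The median lies below 0 at low levels, and the 7 genes that were lower lie below it, Plagl1 above it and Dlk1 close to it. Mest is drawn above it, at an FPKM that rests on an uncertain length.

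By level per length, and leaving out Mest, the order in scrambled libraries was Dlk1, Grb10, Igf2r, Cdkn1c, H19, Plagl1, Meg3, Peg3 and Igf2, and no 2 neighbours in it overlapped over the 3 libraries. In knockdown libraries Plagl1 stood above H19, and the rest of the order was as in the scrambled libraries, again with no overlap between neighbours.

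Among other imprinted genes, Rian, Cd81, Copg2, Sgce and Ndn were lower and H13 was higher. Of 58 listed, 47 were in the table and 25 were abundant enough to test. Of these 12 were lower past the threshold, 1 was higher and 12 did not pass, so that 52.0% were called, beside 51.0% of all tested genes (31.1% lower and 19.8% higher). The list had a median log2 fold change of -0.13 beside -0.05 for all 10311 tested genes. The split was 7 lower and 3 higher under median centring and 7 lower and 2 higher under quantile normalization, and cyclic loess gave 8 lower and 2 higher. Cd81, a tetraspanin gene between Igf2 and Cdkn1c, fell from 63.1 ± 3.51 to 47.1 ± 1.67 FPKM (-0.42 ± 0.05, limma adjusted p = 0.000161). Sgce, the sarcoglycan gene beside Peg10, fell from 17.8 ± 0.226 to 14.6 ± 0.246 FPKM (-0.28 ± 0.04, limma adjusted p = 0.000355). Ndn, which codes for the growth suppressor necdin, fell from 4.01 ± 0.356 to 2.75 ± 0.227 FPKM (-0.47 ± 0.08, limma adjusted p = 0.00145). H13, the signal peptide peptidase gene and the 1 that rose, went from 14.9 ± 0.691 to 17.9 ± 0.490 FPKM (0.25 ± 0.04, limma adjusted p = 0.00163), and it is named outside the rule after its value was seen.

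Among the genes around IGF2, Igf1 and Insr were lower and Irs2 was higher. Of 15 ligand partners, receptors, substrates, binding proteins and mRNA-binding proteins, 14 were in the table and 12 were tested, and 2 were lower, 3 were higher and 7 did not pass (median 0.05). That is 41.7% called, beside 51.0% of all tested genes. After rescaling to TPM 3 were lower and 2 higher, and under quantile normalization 2 were lower and 5 higher. Igf1, the other ligand, fell from 1.26 ± 0.243 to 0.560 ± 0.207 FPKM (-0.74 ± 0.16, limma adjusted p = 0.00485), a call lost under quantile normalization. Like H19, Igf1 entered the fit only through its scrambled libraries, with every knockdown library below 1 FPKM. Its call, counted among the 2 lower, carries that limit. Insr, the insulin receptor gene, fell from 4.62 ± 0.156 to 3.46 ± 0.0534 FPKM (-0.37 ± 0.05, limma adjusted p = 0.000676). Igf1r, a receptor gene, stood at 7.06 ± 0.381 and 7.01 ± 0.0888 FPKM (-0.01 ± 0.05, limma adjusted p = 0.893), so that Grb10, which binds that receptor, was 5.26, 4.69 and 6.03 times its FPKM in scrambled and 3.24, 3.84 and 3.80 times in knockdown libraries 1, 2 and 3. Irs2, an adaptor below both receptors, rose from 9.52 ± 0.0695 to 12.9 ± 0.430 FPKM (0.42 ± 0.04, limma adjusted p = 0.000102). Irs1 (0.19 ± 0.05, adjusted p = 0.0174) and the mRNA-binding protein gene Igf2bp1 (0.16 ± 0.05, adjusted p = 0.0253) passed, and both calls were lost without any 1 of several single libraries.

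Among factors that keep or read imprints, the share past the threshold in either direction was close to that of all tested genes. Of 19 listed, 18 were in the table and 16 were tested, and 7 were lower, 1 was higher and 8 did not pass (median -0.07), which makes 8 of 16 called beside 51.0% of all tested genes. By direction, 43.75% were lower beside 31.1% of all tested genes, and 1 of 16 was higher beside 19.8%. This difference was not tested. The split was 9 lower and 0 higher after rescaling to TPM, 3 and 3 under median centring and 3 and 1 under quantile normalization. The DNA methyltransferase gene Dnmt3a, which lays down germline marks, fell from 2.09 ± 0.0374 to 1.43 ± 0.0930 FPKM (-0.42 ± 0.07, limma adjusted p = 0.00166). Tet2, which codes for an enzyme that oxidises methylcytosine, fell from 1.93 ± 0.142 to 1.34 ± 0.208 FPKM (-0.41 ± 0.10, limma adjusted p = 0.00863), a call lost under quantile normalization and cyclic loess. Zfp445, a zinc finger gene of imprint maintenance, fell from 9.32 ± 0.0267 to 8.20 ± 0.0935 FPKM (-0.18 ± 0.04, limma adjusted p = 0.00609), a call lost under quantile normalization. Its cofactor Trim28 rose from 147 ± 2.49 to 158 ± 0.761 FPKM (0.11 ± 0.03, limma adjusted p = 0.00776), a call lost after rescaling to TPM, under quantile normalization and under cyclic loess. The next 2 are named for their roles, outside the rule. Ctcf, the insulator gene of the H19 and Igf2 locus, stood at 8.06 ± 0.279 and 8.49 ± 0.252 FPKM (0.07 ± 0.05, limma adjusted p = 0.239), and passed, higher, under median centring, quantile normalization and cyclic loess. Dnmt1, the maintenance methyltransferase gene, stood at 77.1 ± 2.08 and 73.4 ± 0.296 FPKM (-0.07 ± 0.03, limma adjusted p = 0.0732), and passed, lower, after rescaling to TPM, under quantile normalization and under cyclic loess.

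**Figure D5:**
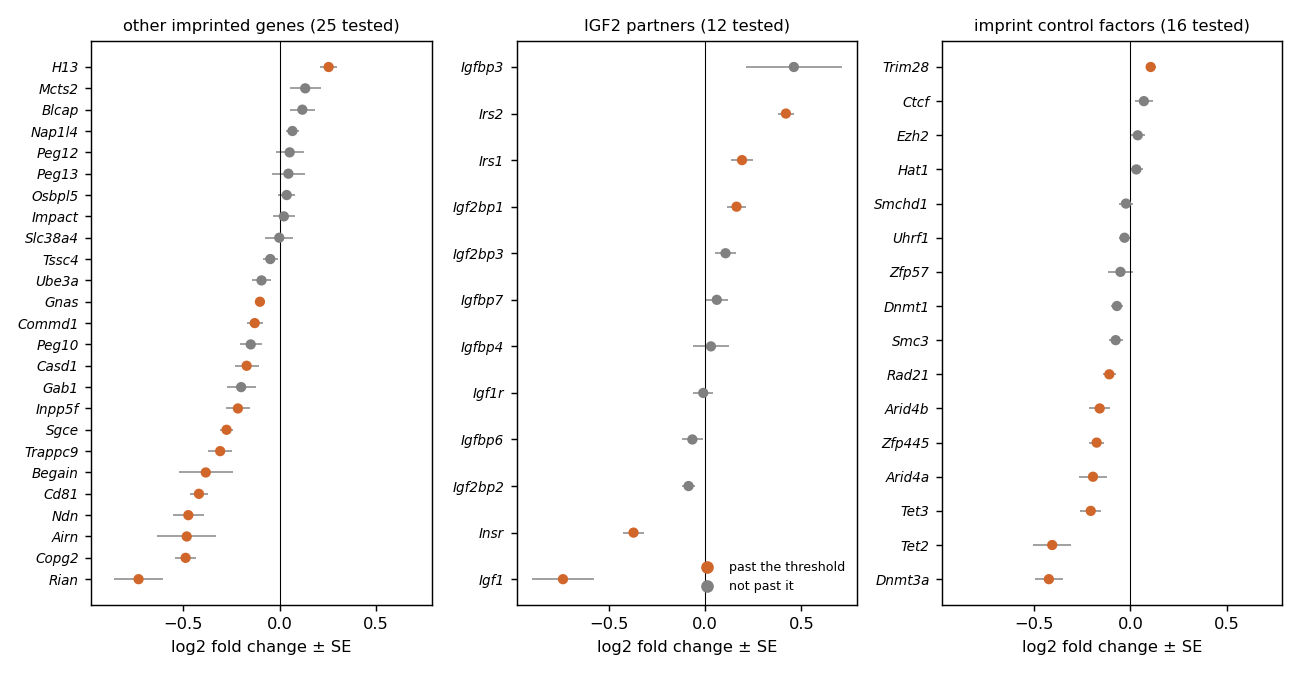
Limma log2 fold change (knockdown against scrambled, on log2(FPKM + 0.5)) with its SE for the tested genes of 3 lists: 25 other imprinted genes, 12 partners of IGF2 and 16 imprint control factors. Orange points are past an adjusted p of 0.05; Rian is the lowest of the imprinted genes at -0.73 and H13 the highest at 0.25.

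Around all 10 loci, 78 genes counted as neighbours, up to 5 on each side with no limit on distance, and 29 of them were tested. Of those 16 were lower, 3 were higher and 10 did not pass, with a median of -0.15. The share called was 65.5%, with 55.2% lower, beside 51.0% and 31.1% of all tested genes, and this difference was not tested. Some of these genes lie far off: Sec61g and Egfr, both called lower, are 4571 and 4822 kb from Grb10. Others, among them Rian, Airn, Cd81 and Copg2, were also counted with the other imprinted genes. The 3 that rose, named after their values were seen, were Mrpl18, Sf3b5 and Ltv1. Mrpl18, a mitochondrial ribosomal protein gene, lies 229 kb from Igf2r (0.22 ± 0.04, limma adjusted p = 0.00154). The splicing factor gene Sf3b5 lies 82.4 kb from Plagl1 (0.08 ± 0.03, limma adjusted p = 0.0348, lost in 9 alternatives). Ltv1, a gene of small ribosomal subunit assembly, lies 87.8 kb from Plagl1 (0.42 ± 0.07, limma adjusted p = 0.00137). Fuca2, a fucosidase gene 410 kb from Plagl1, fell from 2.84 ± 0.277 to 1.52 ± 0.1002 FPKM (-0.72 ± 0.08, limma adjusted p = 0.000218).

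Genes with a pattern most like that of H19 over the 6 libraries were found by the root mean square difference of log2(FPKM + 0.5), each gene taken relative to its own scrambled mean. They were Cth, an enzyme gene of cysteine synthesis (0.115), the pseudokinase gene Trib3 (0.131), Ddit4, an inhibitor gene of mTORC1 (0.185), the hormone gene Fgf21 (0.209) and the mitochondrial protein gene Mgarp (0.220). The added 0.5 compresses low values, so likeness on this scale is not an equal ratio. The ratio of knockdown to scrambled means ran from 0.0413 (Fgf21) to 0.273 (Ddit4), beside 0.157 for H19. Fgf21, like H19, entered the fit only through its scrambled libraries. Those most like Igf2r were the transcription factor genes Snai2 (0.0175) and Hic1 (0.0227), the chromatin remodeller gene Chd2 (0.0185), Vps13b, a Golgi protein gene (0.0244), and Lss, an enzyme gene of sterol synthesis (0.0255).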

How the data were processed

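Messenger RNA was sequenced from 6 libraries, 3 scrambled and 3 knockdown. The authors deposited 1 table with 1 FPKM value per gene and library. The submitters' processing notes name GRCm38, mm10 and GRCm39 without a role, and aligner, counting tool and strand setting were not given in the sources used here. Fragments were recovered as the whole numbers behind the FPKM (within 0.002 of a whole number for 19877 of 19877 genes, and for 15764 of the 15764 above 0 in at least 4 libraries). They summed to 40.6, 37.1 and 37.7 M in scrambled and 36.5, 32.2 and 40.2 M in knockdown libraries 1, 2 and 3, and exact (Clopper-Pearson) intervals from them cover counting error only. Replicates differed by more than sampling noise (chi-square per gene from 3.16 to 12.5).

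Genes at 1 FPKM or more in at least 3 of 6 libraries (10311) were compared as log2(FPKM + 0.5) with limma 3.58.1 in R 4.3.3 (moderated variance with a trend, two-sided), with Benjamini-Hochberg adjustment and a threshold of 0.05. Errors are the SD over 3 libraries for FPKM and the SE for log2 fold changes. The scripts were tested on simulated data. The genes and lists were chosen with earlier results of these data known. Named by rule were the 10 genes; of each list, tested genes past the threshold with an absolute log2 fold change of 0.5 or more and the 4 others of smallest p; neighbours of H19; and other neighbours past the threshold by the same size. Likeness was measured over tested genes without unnamed predicted genes. Positions and sequences came from RefSeq on GRCm38.p6, and exon lengths from GENCODE M21. Alternatives changed the pseudocount, filter, scaling, variance trend, block and libraries. Per the labels, libraries of 1 number share a batch, so the number pairs them. Their deviations from the group means correlated at 0.0859, 0.0120 and 0.189 in batches 1, 2 and 3 over 10311 genes. Limma-voom on the recovered fragments (at least 10 in at least 3 libraries) was added after seeing the data.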

Additional observations from a re-analysis of the deposited data

How the results depend on the processing

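The log2 fold changes of H19, Igf2r, Cdkn1c and Grb10 kept their sign under the alternatives that fitted them. Their ranges were -2.67 to -1.69, -0.54 to -0.42, -0.46 to -0.34 and -0.60 to -0.48 respectively. Those of Dlk1 (-0.11 to 0.08) and Plagl1 (-0.04 to 0.24) took both signs. Genes that kept the sign had groups that did not overlap in these same libraries, so a kept sign adds no support. For completeness, 4 of the 6 imprinted growth genes tested as filtered were past the threshold, beside 51.0% of all tested genes. Without the filter it was 8 of 10 tested, beside 25.4%, and with limma-voom on the fragments 7 of 9 tested, beside 47.5%. The genes were chosen on this comparison, and H19 passed the filter only through its scrambled libraries, so nothing is read from these counts. With a mean of at least 5 FPKM, which leaves fewer genes to test, 7 other imprinted genes, 2 partners of IGF2 and 5 imprint control factors were past the threshold. Cyclic loess gave 8 partners of IGF2 and quantile normalization gave 4 control factors, and the cause was not tested. Leaving out 1 library at a time gave 3 to 6 partners of IGF2 and 5 to 8 control factors. Irs1 was lost without knockdown library 1 or scrambled library 2 or 3, and Igf2bp1 when rescaled to TPM and without any scrambled library or knockdown library 1. With the replicate block, which uses the batch pairing, 5229 genes were past the threshold (2055 higher and 3174 lower), 4 of the imprinted growth genes, 11 other imprinted genes, 5 partners of IGF2 and 7 control factors, and among genes named in the text only the call of Airn was lost. Depth limits Igf2 most, with 22 fragments in scrambled and 3 in knockdown libraries. Meg3, Mest and Peg3 were below the filter, which is set on FPKM and not on fragments. Groups of 3 are too small for a test of outlying libraries.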
